A study of Homo sapiens with 8 samples.

Results

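The genes described here encode enzymes that make serine, mitochondrial folate-bound one-carbon units, cysteine and asparagine, together with the mitochondrial enzyme that makes phosphoenolpyruvate. The set holds 10 genes, taken by symbol, of 58219 genes listed in each library: *PHGDH*, *PSAT1*, *PSPH*, *SHMT2*, *MTHFD2*, *ALDH1L2*, *CTH*, *CBS*, *ASNS* and *PCK2*. All 10 passed the filter on low counts, along with 13119 other protein-coding genes. RNA-seq was performed on 2 multiple myeloma (MM) cell lines, NCI-H929 (H929) and KMS11, that carry the *t*(4;14) translocation, which places *NSD2* and *FGFR3* under immunoglobulin heavy chain control. Each line was grown in RPMI medium with fetal bovine serum and was exposed for 24 h either to 2 µM fluvastatin, an inhibitor of HMG-CoA reductase in the mevalonate pathway, or to ethanol, the solvent in which the drug was given. Each of the 4 groups (H929 ethanol, H929 fluvastatin, KMS11 ethanol, KMS11 fluvastatin) held 2 biological replicates, giving 8 libraries. The design asks what the drug changed in MM lines with this translocation and, as both lines were treated, whether they responded to the same extent.

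Serine is made from the glycolytic intermediate 3-phosphoglycerate in consecutive steps by PHGDH, PSAT1 and PSPH. SHMT2 then passes a carbon from serine to tetrahydrofolate inside mitochondria, MTHFD2 oxidizes it and ALDH1L2 converts formyl-folate to carbon dioxide with production of NADPH, whereas MTHFD1 and TYMS handle folate-bound carbon outside mitochondria for purine and thymidylate synthesis. CBS joins serine to homocysteine and CTH cleaves the product to cysteine, ASNS amidates aspartate to asparagine, and PCK2 forms phosphoenolpyruvate from oxaloacetate. Many of these genes are known targets of the transcription factor ATF4, the effector of the integrated stress response (ISR), and plasma cells, which secrete antibody, have a high demand for amino acids.

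Promoter windows of 3 of the genes are printed because *CTH* and *PCK2* had the largest increases in H929 and *ASNS* held the only motif match. Each is the RefSeq sequence of the GRCh38.p14 assembly from 250 bases before to 50 bases after an annotated start, written 5′ to 3′ on the strand of the gene. The windows are chr7:97872359-97872658 on the minus strand (*ASNS*), chr1:70411018-70411317 on the plus strand (*CTH*) and chr14:24094061-24094360 on the plus strand (*PCK2*). Capitals mark a match to TGATGNAA, the core of the C/EBP-ATF response element.
ASNS: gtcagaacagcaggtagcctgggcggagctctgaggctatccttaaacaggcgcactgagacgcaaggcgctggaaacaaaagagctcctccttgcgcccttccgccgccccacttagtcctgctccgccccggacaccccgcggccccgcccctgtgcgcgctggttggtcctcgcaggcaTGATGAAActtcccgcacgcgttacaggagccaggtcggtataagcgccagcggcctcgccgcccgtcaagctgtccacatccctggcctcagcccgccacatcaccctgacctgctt
CTH: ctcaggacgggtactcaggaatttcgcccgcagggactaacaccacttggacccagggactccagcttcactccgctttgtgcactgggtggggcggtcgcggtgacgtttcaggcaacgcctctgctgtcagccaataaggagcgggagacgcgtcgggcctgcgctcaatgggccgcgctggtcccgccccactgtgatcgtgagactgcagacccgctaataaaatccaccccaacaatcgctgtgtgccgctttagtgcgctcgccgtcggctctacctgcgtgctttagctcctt
PCK2: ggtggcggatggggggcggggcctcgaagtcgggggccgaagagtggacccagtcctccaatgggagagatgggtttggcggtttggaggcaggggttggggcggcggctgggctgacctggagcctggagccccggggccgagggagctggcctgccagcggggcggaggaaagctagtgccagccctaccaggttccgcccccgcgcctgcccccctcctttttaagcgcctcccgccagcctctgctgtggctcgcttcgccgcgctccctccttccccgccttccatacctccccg
Windows were at hand for 7 of the 10 genes, and were missing for *PSPH*, *SHMT2* and *ALDH1L2*. On both strands, 1 of the 10 windows of these 7 genes matched TGATGNAA, in *ASNS*, where TGATGAAA began 68 bases before the start. Over all windows of the same length, 1270 of 35116 (3.62%) held a match. A match describes the letters alone.

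The libraries held 26702515 to 41910446 expected counts, of which 85.2% to 91.4% fell on protein-coding genes. The share on mitochondrial genes was 0.716% to 0.745% in H929 ethanol and 0.898% to 1.06% in H929 fluvastatin, and 0.52% to 0.53% in KMS11 ethanol and 0.665% to 0.678% in KMS11 fluvastatin. All 10 plasma cell markers exceeded 1 TPM in at least one library, but *CD38* was at 0.01 to 0.04 TPM in KMS11. Their sum was 6180 to 7210 TPM in H929 ethanol and 6990 to 7990 in H929 fluvastatin, and 6430 to 6920 in KMS11 ethanol and 4600 to 5720 in KMS11 fluvastatin. Single markers went both ways in H929. *SDC1* was at 97.7 to 122 TPM in ethanol and 44.1 to 61.1 in fluvastatin, *MZB1* at 201 to 282 and 87.4 to 136, and *SLAMF7* at 83.8 to 98.9 and 42.9 to 46.9, while *TNFRSF17* was at 414 to 415 and 469 to 480 and *PRDM1* at 52.7 to 58.4 and 67.6 to 68.2. In the 8 libraries *NSD2* was at 83.6 to 141 TPM. *FGFR3* was at 5.33 to 10.8 TPM in H929 and 75.3 to 95.2 TPM in KMS11. *RHOB*, a gene induced by loss of geranylgeranylation, rose with fluvastatin in H929 (log2 fold change 5.33, adjusted p = 1.1e-06) and in KMS11 (3.23, adjusted p = 3.5e-05). Among markers of other cells, B cell, myeloid, erythroid and fibroblast genes each stayed under 1 TPM. The summed T cell markers were 1.51 to 1.6 TPM in H929 ethanol and 3.07 to 3.54 in H929 fluvastatin, most of it *CD3E*, and 0.29 to 0.46 in KMS11. The summed epithelial markers were 39.4 to 46.3 TPM in KMS11 and 0.33 to 0.59 in H929, and the endothelial gene *PECAM1* was at 5.87 to 7.98 TPM in H929. These markers moved with the treatment or with the line, and their part in the results below was not tested.

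In H929, fluvastatin raised the RNA of 8 of the 10 genes and lowered none. The increases ran from 1.46-fold for *PSPH* to 7.18-fold for *CTH*, and the cysteine genes and *PCK2* moved most. Of all 13129 genes tested, 22.7% were called higher in this comparison. The median log2 fold change of the 10 genes was 0.82, beside 0.022 over all genes tested. In 8 of the 10 both fluvastatin libraries lay above both ethanol libraries, an arrangement seen in 37.5% of all genes. As these are bulk libraries, a change in the RNA of every cell and a change in the share of cells that make it cannot be told apart. Values per library are TMM-normalized read counts scaled to library size (CPM), replicate 1 first, and calls are from the edgeR quasi-likelihood test at an adjusted p under 0.05.

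**Figure D1:**
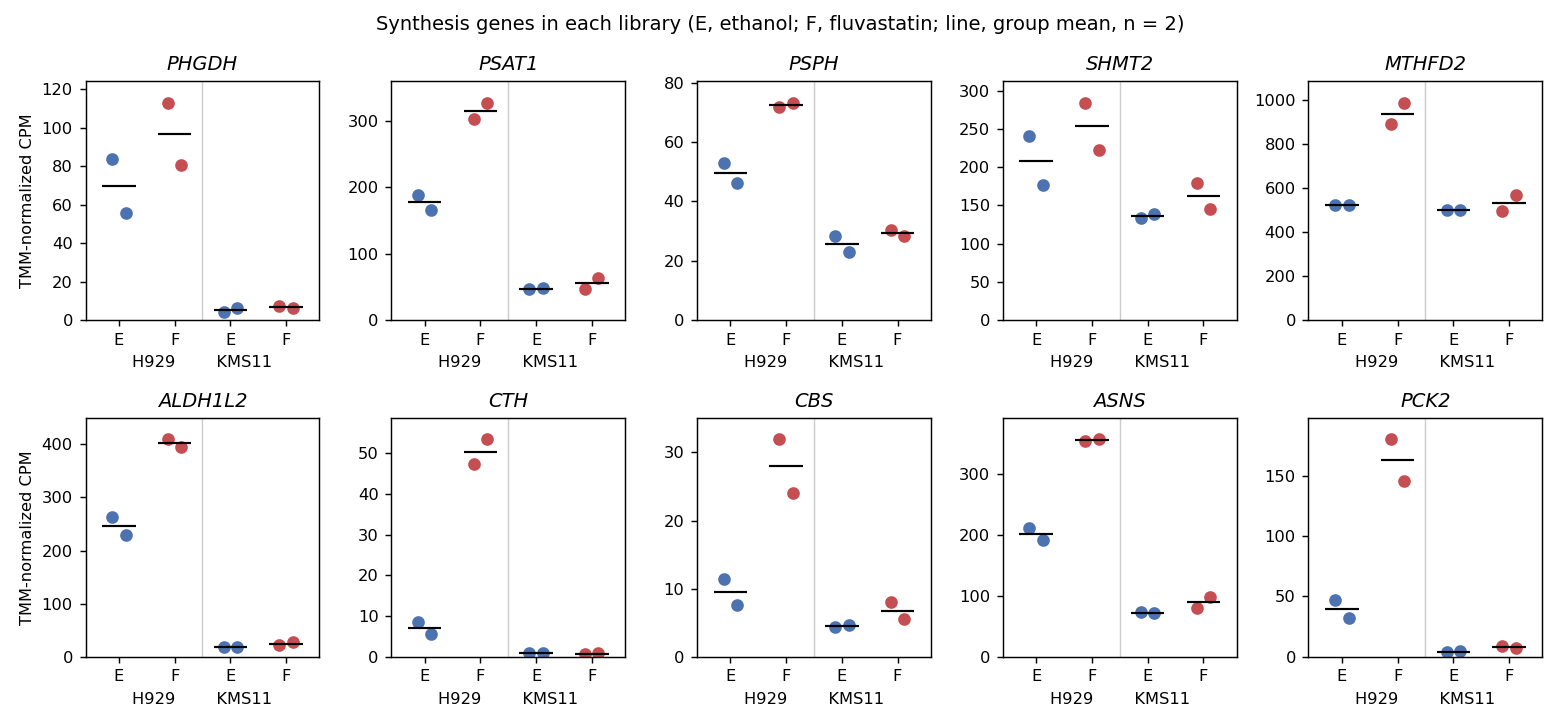
TMM-normalized CPM (vertical axes, each from 0) of the 10 genes in the 8 libraries, with H929 on the left and KMS11 on the right of each panel. Points are libraries (E, ethanol; F, fluvastatin) and lines are means of 2; in H929 the fluvastatin points stand clear of the ethanol points for all genes but *PHGDH* and *SHMT2*, and *CTH* went from a mean of 6.98 to 50.4 CPM.

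The transsulfuration pair moved together. *CTH* (GRCh38, GENCODE 44, chromosome 1, 70411218 to 70439851, plus strand) measured 8.44 and 5.52 CPM in ethanol and 47.3 and 53.4 CPM in fluvastatin. The groups were far apart, and the log2 fold change was 2.84 ± 0.20 (SE), adjusted p = 8.4e-06. *CBS* (chromosome 21, 43053191 to 43076943, minus strand), which acts just before *CTH*, was at 11.4 and 7.56 CPM in ethanol and 31.9 and 24.0 CPM in fluvastatin. It rose 2.94-fold, with a log2 fold change of 1.56 ± 0.24, adjusted p = 0.00068. GRCh38 holds a near-identical copy of *CBS* (chromosome 21, 6444869 to 6467513) that GENCODE tags as an artifactual duplication. It took 0 to 15 counts per library, and adding them gave a log2 fold change of 1.54 in H929 and 0.62 in KMS11, with the same calls.

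*PCK2* (chromosome 14, 24094053 to 24110598, plus strand) was the only gene of the 10 besides *CTH* to rise more than 4-fold. It stood at 47.1 and 32 CPM in ethanol and 180 and 146 CPM in fluvastatin, a log2 fold change of 2.04 ± 0.20, adjusted p = 5.3e-05. Its cytosolic counterpart *PCK1* was at 0 counts in all 8 libraries. *ASNS* (chromosome 7, 97851677 to 97872542, minus strand) measured 212 and 192 CPM in ethanol and 354 and 357 CPM in fluvastatin. The replicates were close and the log2 fold change was 0.81 ± 0.11, adjusted p = 0.00028.

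Of the 3 serine synthesis genes, the later 2 steps were called, and the call for the first depended on the processing. *PSAT1* (chromosome 9, 78297125 to 78330093, plus strand) rose from 188 and 166 CPM to 302 and 327 CPM, a log2 fold change of 0.83 ± 0.13, adjusted p = 0.00079. *PSPH* (chromosome 7, 56011051 to 56051604, minus strand) rose from 52.9 and 46.2 CPM to 71.9 and 73.2 CPM, a log2 fold change of 0.55 ± 0.12, adjusted p = 0.0054. *PHGDH* (chromosome 1, 119648411 to 119744218, plus strand), the entry enzyme, was at 83.6 and 55.9 CPM in ethanol and 113 and 80.8 CPM in fluvastatin. Its groups overlapped, since the second fluvastatin library lay below the first ethanol library, and its log2 fold change was 0.48 ± 0.22, adjusted p = 0.10. It was called by DESeq2 (adjusted p = 0.043), without the filter on low counts (adjusted p = 0.037), with the GC offset (adjusted p = 0.019) and with a replicate block (adjusted p = 0.0083).

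Of the mitochondrial one-carbon genes, the enzymes after *SHMT2* were called. *MTHFD2* (chromosome 2, 74186172 to 74217565, plus strand) was at 524 and 520 CPM in ethanol and 888 and 986 CPM in fluvastatin, a log2 fold change of 0.84 ± 0.097, adjusted p = 0.00013. *ALDH1L2* (chromosome 12, 105019784 to 105107643, minus strand) was at 263 and 229 CPM in ethanol and 409 and 395 CPM in fluvastatin, a log2 fold change of 0.71 ± 0.12, adjusted p = 0.0012. *SHMT2* (chromosome 12, 57229573 to 57234935, plus strand) measured 240 and 177 CPM in ethanol and 284 and 222 CPM in fluvastatin. These groups overlapped, and its log2 fold change was 0.28 ± 0.17, adjusted p = 0.20. It was called with the GC offset (adjusted p = 0.008) and with a replicate block (adjusted p = 0.031).

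Single libraries changed a few of these calls. Without H929 ethanol replicate 1, *PHGDH* (0.79, adjusted p = 0.027) and *SHMT2* (0.52, adjusted p = 0.047) were also called, without H929 fluvastatin replicate 2 *PHGDH* was (0.70, adjusted p = 0.045), and without H929 ethanol replicate 2 *PSPH* was not (0.46, adjusted p = 0.051). Over all 16 alternatives the adjusted p ranged from 0.0083 to 0.53 for *PHGDH*, from 0.006 to 0.78 for *SHMT2* and from 0.0005 to 0.051 for *PSPH*.

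In KMS11, edgeR called none of the 10 genes, where 2.58% of all genes tested were called higher and 0.533% lower. At an unadjusted p under 0.05 there were 4 (*ALDH1L2*, *CBS*, *ASNS* and *PCK2*), and the share of all genes at that cut is not given here. DESeq2 called 2, *ALDH1L2* and *PCK2*, where it called 657 of 11092 genes higher and 269 lower. The log2 fold changes ran from -0.35 to 0.89 with a median of 0.29, beside 0.004 over all genes, and 9 of 10 were above 0. Both fluvastatin libraries lay above both ethanol libraries in 7 of the 10, against 26.9% of all genes. Fewer genes were called in KMS11 as a whole than in H929.

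*PCK2* had the highest value in KMS11, from 3.58 and 5.06 CPM in ethanol to 8.74 and 7.31 CPM in fluvastatin. The groups did not overlap, and the log2 fold change was 0.89 ± 0.24, adjusted p = 0.078. *CBS* was at 4.33 and 4.70 CPM in ethanol and 7.98 and 5.58 CPM in fluvastatin (0.58 ± 0.25, adjusted p = 0.22). *ALDH1L2* was at 18.6 and 18.1 CPM in ethanol and 21.8 and 28.1 CPM in fluvastatin (0.45 ± 0.13, adjusted p = 0.097). *ASNS* was at 72.9 and 71.3 CPM in ethanol and 80.7 and 97.9 CPM in fluvastatin. Its 2 fluvastatin libraries were both above ethanol but differed more than the ethanol pair did, and the log2 fold change was 0.31 ± 0.11, adjusted p = 0.15.

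*PHGDH* was at 4.36 and 6.15 CPM in KMS11 ethanol and 7.29 and 6.52 CPM in fluvastatin. *PSPH* was at 28.3 and 23.1 CPM in ethanol and 30.3 and 28.4 CPM in fluvastatin, and *SHMT2* at 133 and 138 CPM in ethanol and 179 and 145 CPM in fluvastatin. In these 3 the fluvastatin libraries were the higher ones, and none passed the test. *PSAT1* (46.1 and 48.1 CPM in ethanol, 47.3 and 62.9 CPM in fluvastatin) and *MTHFD2* (499 and 499 CPM in ethanol, 495 and 566 CPM in fluvastatin) overlapped between groups. *CTH*, the largest responder in H929, was lower in both KMS11 fluvastatin libraries, at 0.966 and 1.04 CPM in ethanol and 0.722 and 0.835 CPM in fluvastatin. These rest on 37 and 38 counts in ethanol and 20 and 32 in fluvastatin, with a log2 fold change of -0.35 ± 0.30, adjusted p = 0.51.

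The fluvastatin response varied with base composition, with opposite trends in the lines. The median log2 fold change in KMS11 was -0.11 in the quintile of genes with the least GC (up to 42.6%) and 0.40 in the quintile with the most (58.2% and above). In H929 the same quintiles had medians of 0.13 and -0.15. *PCK2*, *CBS* and *SHMT2* were in the GC-rich quintile, and *MTHFD2* and *ALDH1L2* in the GC-poor quintile. With an offset for GC content, 3 genes were called higher in KMS11 (*ALDH1L2*, *ASNS* and *PCK2*), where 895 of all 13129 genes were called higher and 631 lower. In KMS11 that offset lowered *PCK2* (0.59), *CBS* (0.23), *PHGDH* (0.26), *SHMT2* (0.02) and *PSPH* (0.16). It raised *ALDH1L2* (0.52), *ASNS* (0.35), *PSAT1* (0.28), *MTHFD2* (0.17) and *CTH* (-0.31) there. In H929 that offset lowered *ALDH1L2* (0.51), *MTHFD2* (0.65), *PSAT1* (0.63), *ASNS* (0.61), *CTH* (2.63) and *PSPH* (0.49). It slightly raised *CBS* (1.6) and *PCK2* (2.08), and these genes all stayed called there. Leaving out KMS11 fluvastatin replicate 1 added *ALDH1L2*, and leaving out KMS11 fluvastatin replicate 2 added *PCK2*.

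**Figure D2:**
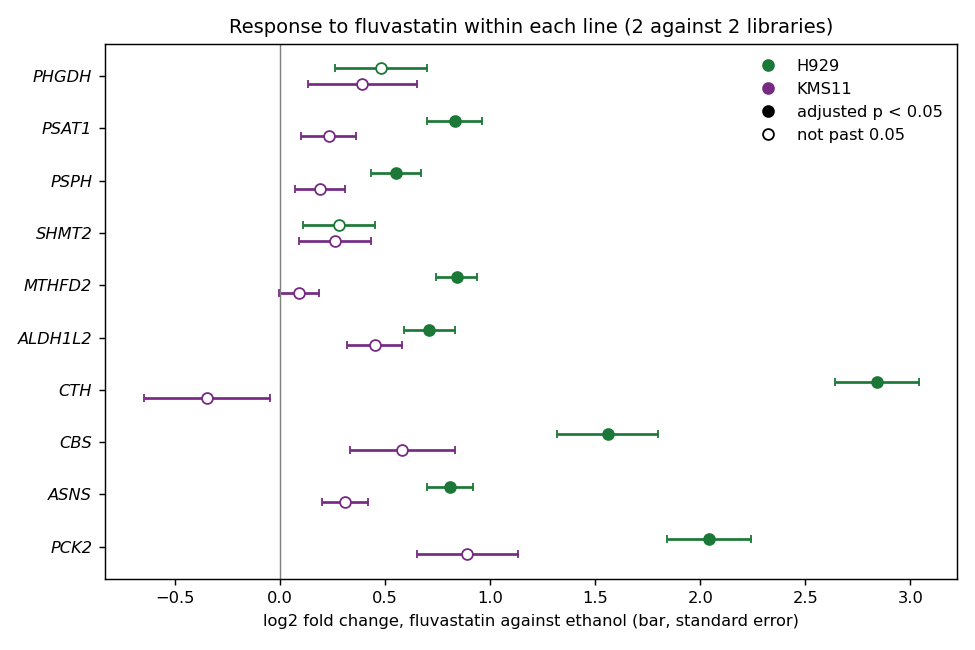
log2 fold change with fluvastatin (horizontal axis) of each gene in H929 and in KMS11, each from 2 fluvastatin and 2 ethanol libraries. Bars are standard errors and filled points are those with an adjusted p under 0.05, which are 8 in H929 and 0 in KMS11; *CTH* lies at 2.84 in H929 and -0.35 in KMS11.

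Whether the lines differed was tested directly, as the KMS11 response minus the H929 response. The difference was below 0 for all 10 genes, and 5 passed the test, all with the smaller or opposite response in KMS11, where 11.5% of all genes tested were called lower. *CTH* differed most, by -3.19 ± 0.35 on the log2 scale (adjusted p = 0.00047). *PCK2* differed by -1.15 ± 0.31 (adjusted p = 0.024) and *MTHFD2* by -0.76 ± 0.14 (adjusted p = 0.0045). *PSAT1* (-0.60 ± 0.19, adjusted p = 0.044) and *ASNS* (-0.51 ± 0.15, adjusted p = 0.038) were close to the threshold. *CBS*, at -0.98 ± 0.34, had adjusted p = 0.065. The values of *PSPH* (-0.36 ± 0.18, adjusted p = 0.17), *ALDH1L2* (-0.26 ± 0.18, adjusted p = 0.31), *PHGDH* (-0.08 ± 0.34, adjusted p = 0.90) and *SHMT2* (-0.02 ± 0.23, adjusted p = 0.99) did not pass, which does not show that these genes responded alike.

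The calls for *CTH* and *MTHFD2* held under each of the 20 alternatives, with adjusted p from 5.7e-14 to 0.0044 and from 1.3e-05 to 0.038. Those for *PSAT1* and *ASNS* were each lost in 11 of 20 (adjusted p from 0.0021 to 0.15 and from 0.005 to 0.16) and that for *PCK2* in 3 (0.00018 to 0.11). The count fell to 2 without KMS11 ethanol replicate 2 or without H929 fluvastatin replicate 1, and to 3 without KMS11 ethanol replicate 1, H929 ethanol replicate 2 or H929 fluvastatin replicate 2. Base composition moved with this contrast too, with a median difference of -0.23 in the GC-poor quintile and 0.57 in the GC-rich quintile. With the GC offset *PCK2* was at -1.5 and *CBS* at -1.37 (adjusted p = 0.00024, called there), both larger in size than without it. For the other genes called in the main test, the responses of the lines lay closer together with that offset. The offset gave 0.63 in H929 and 0.28 in KMS11 for *PSAT1*, and 0.61 and 0.35 for *ASNS*. The same values were 0.65 and 0.17 for *MTHFD2*, and 2.63 and -0.31 for *CTH*.

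With the lines fitted together and the line as a term, 4 genes passed and none fell: *PCK2* (1.52 ± 0.26, adjusted p = 0.014), *ALDH1L2* (0.58 ± 0.11, adjusted p = 0.018), *ASNS* (0.56 ± 0.12, adjusted p = 0.028) and *CBS* (1.08 ± 0.25, adjusted p = 0.032). Of all genes tested 6.5% were called higher, and the median of the 10 was 0.55 beside 0.033. *PSAT1* (0.53, adjusted p = 0.051) lay just outside. *CTH* had the largest value, 1.65, but the lines went apart, which widened its error to 0.59 (adjusted p = 0.099). Like the number of all genes called, the count among the 10 depended on each H929 library. It was 0 when H929 ethanol replicate 1 was left out, 1 (*PCK2*) when any of the other 3 H929 libraries was, and 7 without KMS11 fluvastatin replicate 1.

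In ethanol 9 of the 10 genes were lower in KMS11 than in H929, where 36.4% of all genes tested were called lower and 35.6% higher. *ALDH1L2* was 13.4-fold lower (log2 difference -3.74 ± 0.14, adjusted p = 1.2e-08), *PHGDH* 13.3-fold (-3.73 ± 0.25, adjusted p = 7.4e-07), *PCK2* 9.18-fold (-3.20 ± 0.23, adjusted p = 1.1e-06) and *CTH* 6.97-fold (-2.80 ± 0.24, adjusted p = 3.2e-06). *PSAT1* was 3.75-fold, *ASNS* 2.80-fold, *CBS* 2.10-fold, *PSPH* 1.93-fold and *SHMT2* 1.54-fold lower. *MTHFD2* was not called, at 522 ± 2.74 in H929 and 499 ± 0.0553 in KMS11 (SD, n = 2), with a log2 difference of -0.06 ± 0.096, adjusted p = 0.56.

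The smaller of these differences depended on base composition and scale. GC-rich genes were lower in KMS11 as a whole, with a median log2 difference of -0.97 in the GC-rich quintile and 0.32 in the GC-poor quintile. With the GC offset *SHMT2* (-0.04, adjusted p = 0.64) and *CBS* (-0.29, adjusted p = 0.077) were no longer called and *MTHFD2* was called lower (-0.41, adjusted p = 6.3e-05), while on the log2(TPM + 1) scale *MTHFD2* was higher in KMS11 (0.39, adjusted p = 0.018). *SHMT2* was also lost without H929 ethanol replicate 1 (-0.39, adjusted p = 0.07). The line cannot be told apart from any difference in how the lines were handled.

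Levels between genes were compared in TPM, which divides by transcript length. In H929 ethanol *MTHFD2* led at 128 ± 4.75 TPM (SD, n = 2). *SHMT2* (61.3) and *ASNS* (55.0) followed with overlapping libraries, then *PSAT1* (41.8), a trio with overlapping neighbours of *ALDH1L2* (20.4), *PHGDH* (19.6) and *PSPH* (17.3), then *PCK2* (10.0) and, overlapping, *CBS* (2.42) and *CTH* (2.06). With fluvastatin in H929 *ASNS* (95.9) passed *SHMT2* (74.4), *PCK2* (37.9) passed *ALDH1L2* (31.6), *PHGDH* (26.9) and *PSPH* (25.7), and *CTH* (14.6) passed *CBS* (6.67). In each of these 3 shifts the libraries of the neighbours in the new order did not overlap, except *PHGDH* with *PSPH*.

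KMS11 kept the upper part of that order in ethanol, with *MTHFD2* (168), *SHMT2* (48.9 to 51.1 in its libraries), *ASNS* (28.3), *PSAT1* (15.9) and *PSPH* (11.1) in non-overlapping steps. *PHGDH* (2.16) and *ALDH1L2* (2.10) overlapped, as did *CBS* (1.66) and *PCK2* (1.49), and *CTH* (0.445) came last. With fluvastatin the first 5 and *CTH* held the same places. *MTHFD2* was at 165 ± 24.9 TPM in KMS11 fluvastatin and *CTH* at 0.31 ± 0.0707.

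**Figure D3:**
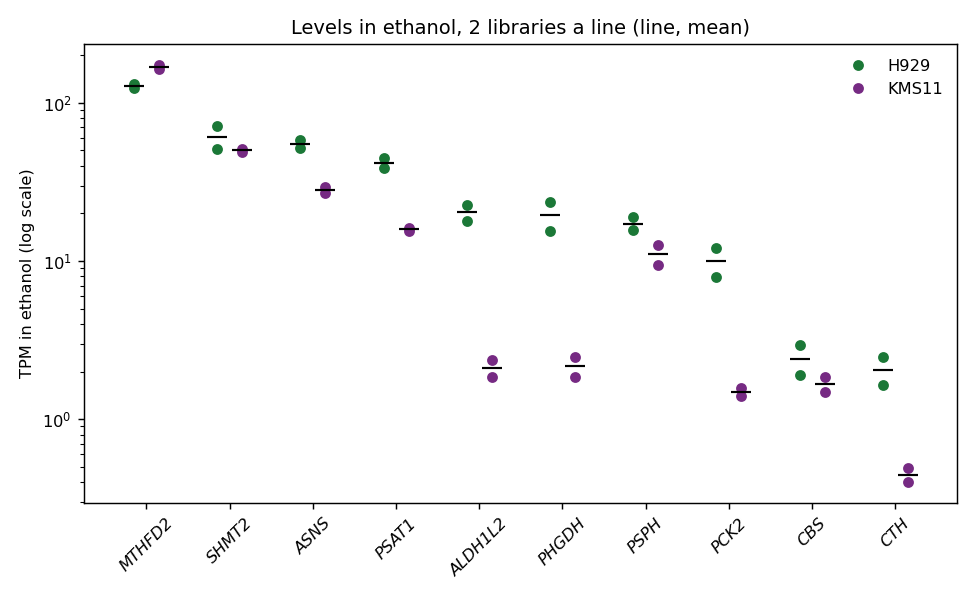
TPM in ethanol on a log axis for each gene, ordered by its mean in H929, with 2 libraries a line as points and means as lines. *ALDH1L2*, *PHGDH*, *PCK2* and *CTH* are far lower in KMS11, and *MTHFD2* leads in both lines.

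Partner enzymes in other compartments were compared next. *MTHFD1*, which carries out in the cytosol the step that MTHFD2 catalyses in mitochondria along with others, fell from 140 and 138 CPM to 58.9 and 61.8 CPM in H929 (log2 fold change -1.20 ± 0.091, adjusted p = 1.4e-05). In KMS11 it was at 105 and 116 CPM in ethanol and 101 and 104 CPM in fluvastatin (-0.11, adjusted p = 0.47), and the lines differed by 1.09 ± 0.13 (adjusted p = 0.00059). The ratio of *MTHFD2* to *MTHFD1* in TPM was therefore 4.23 to 4.29 in H929 ethanol and 15.4 to 17.5 in H929 fluvastatin, compared with 4.22 to 5.20 and 5.28 to 5.82 in KMS11. *SHMT1*, the cytosolic partner of *SHMT2*, was at 82.8 and 90.1 CPM in H929 ethanol and 90.8 and 99.2 CPM in fluvastatin (0.14, adjusted p = 0.28). *MTHFD2L*, a second mitochondrial enzyme of the MTHFD2 type, had a log2 fold change of 0.10 in H929 (adjusted p = 0.64), whose sign turned with the GC offset. *ALDH1L1*, the cytosolic partner of *ALDH1L2*, was at 0.34 and 0.60 CPM in H929 ethanol, 0.966 and 0.685 CPM in H929 fluvastatin and 0 to 0.0274 CPM in KMS11. At this low level its log2 fold change in H929 was 0.82 ± 0.51 (adjusted p = 0.23), while in TPM it was at 0.16 and 0.26 in ethanol and 0.22 and 0.17 in fluvastatin.

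Other genes of folate metabolism were more often called lower than higher in H929. Of 19 tested, 2 were called higher and 6 lower, where 22.7% of all genes were called higher and 19.3% lower, and the list median was -0.26. The folate carrier *SLC19A1* (-1.55 ± 0.22, adjusted p = 0.00041) and thymidylate synthase *TYMS* (-1.06 ± 0.11, adjusted p = 7.5e-05) fell with *MTHFD1*. Of the 6 enzymes of purine synthesis, a pathway that takes one-carbon units at the steps of GART and ATIC, 5 were called lower, with a median of -0.47. *PFAS* (-1.19), *PAICS* (-1.12), *PPAT* (-0.52), *ADSL* (-0.42) and *GART* (-0.42) fell, and *ATIC* was at 0.35 ± 0.13 (adjusted p = 0.05, not called). In KMS11, *GLDC* of the glycine cleavage system was the 1 folate gene that edgeR called (-0.59 ± 0.11, adjusted p = 0.022), where 5 had an unadjusted p under 0.05 and DESeq2 called 4. Of the purine genes edgeR called 0 there, where 4 had an unadjusted p under 0.05 and DESeq2 called 2. Over all genes in KMS11, edgeR called 2.58% higher and 0.533% lower, and DESeq2 called 657 of 11092 higher and 269 lower. The lines differed for *SLC19A1* (1.86), *TYMS* (1.2), *PFAS* (1.21) and *PAICS* (0.80), each with the lower response in H929.

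Counts for neighbouring amino acid genes in H929 stand beside 22.7% of all genes called higher and 19.3% lower. Of 18 tested genes of the methionine cycle, sulfur handling and glutathione, 5 (27.8%) were called higher and 2 (11.1%) lower in H929, with a median of -0.04. *CHAC1*, which breaks down glutathione, rose in H929 (1.51 ± 0.36, adjusted p = 0.008) and in KMS11 (3.07 ± 0.50, adjusted p = 0.011). *MAT2A*, which makes S-adenosylmethionine, fell in H929 (-0.59, adjusted p = 0.0073), and the S-adenosylhomocysteine hydrolase-like genes *AHCYL2* (0.62) and *AHCYL1* (0.56) rose. Of 15 tested genes of other amino acid synthesis, 5 (33.3%) were called higher and 3 (20.0%) lower in H929 (median -0.18). In KMS11 edgeR called 0 of them, with 5 at an unadjusted p under 0.05 and 4 called by DESeq2, which called 657 of 11092 genes higher and 269 lower. *GPT2*, a mitochondrial alanine transaminase, rose from 57.5 and 43.7 CPM to 114 and 102 CPM in H929 (1.09 ± 0.13, adjusted p = 0.00019) and *GLUL*, glutamine synthetase, rose by 0.80 (adjusted p = 0.00016), whereas *PYCR3*, of proline synthesis, fell by 1.0 on the log2 scale (adjusted p = 0.006). *ASS1* (2.92) and *BCAT1* (2.85) had the largest values in H929 but low levels, at 0.44 to 4.08 and 0.272 to 2.74 CPM.

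**Figure D4:**
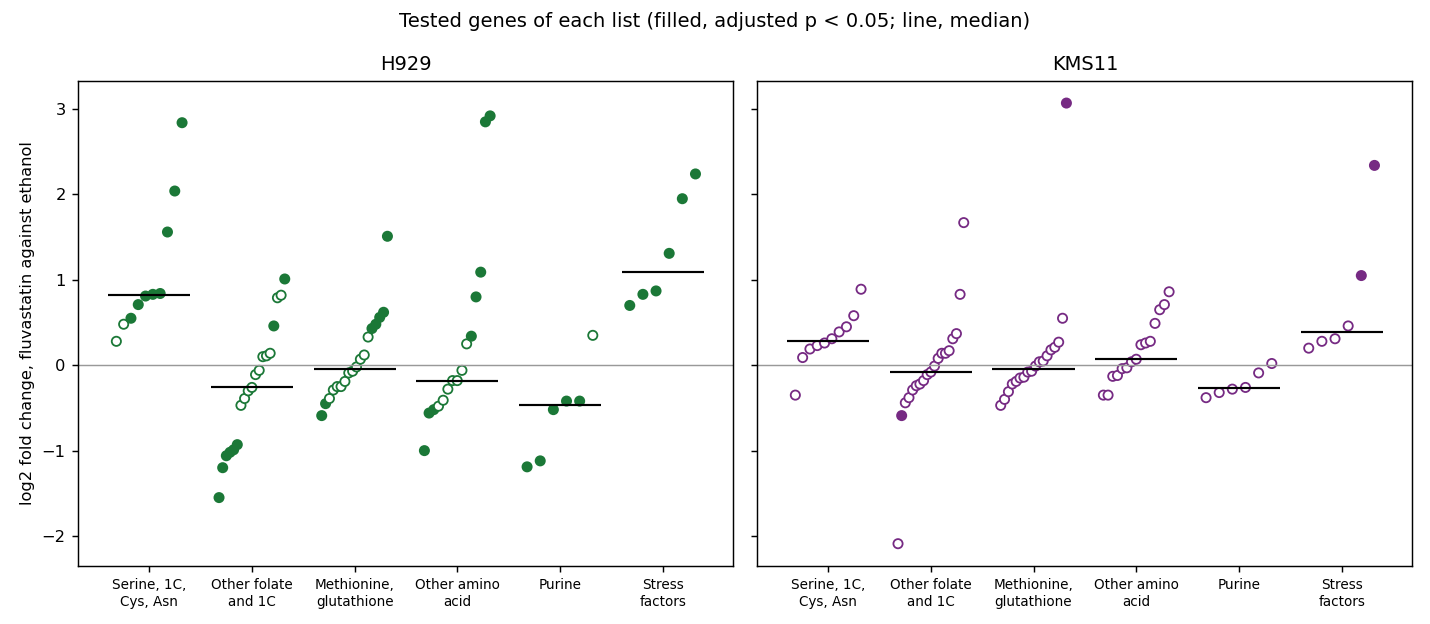
log2 fold change with fluvastatin (vertical axis) of every tested gene in 6 lists, H929 on the left and KMS11 on the right. Filled points have an adjusted p under 0.05 and lines are list medians; in H929 the 10 genes described here have a median of 0.82 and the purine genes of -0.47.

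Of the listed stress response factors, 6 of 6 tested rose in H929, with a median of 1.09, where 22.7% of all genes were called higher. In KMS11 edgeR called 2 of the 6 higher, where 2.58% of all genes were. DESeq2 called 3 there, where it called 657 of 11092 genes higher and 269 lower. *ATF4*, the transcription factor translated when eIF2α is phosphorylated, went from 425 and 342 CPM to 674 and 571 CPM in H929 (0.70 ± 0.13, adjusted p = 0.0017) and from 282 and 249 CPM to 324 and 334 CPM in KMS11 (0.31 ± 0.13, adjusted p = 0.19). *ATF3* rose in both lines, by 2.24 in H929 (adjusted p = 4.5e-06) and 2.34 in KMS11 (adjusted p = 2.4e-05), as did *DDIT3*, by 1.95 (adjusted p = 2.2e-05) and 1.05 (adjusted p = 0.0093). The response of *DDIT3* was smaller in KMS11 (difference -0.89, adjusted p = 0.021), and so were those of *TRIB3* (-0.85, adjusted p = 0.0048), *CEBPG* (-0.64, adjusted p = 0.0097) and *CEBPB* (-0.59, adjusted p = 0.045). That of *ATF3* differed by 0.10 (adjusted p = 0.75). *NUPR1* did not pass the filter on low counts.

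The 10 genes varied together across the libraries to unequal degrees. After each line was centred, the log2 CPM of a gene correlated with the mean of the other 9 over 8 libraries with r from 0.675 (*SHMT2*) and 0.724 (*PHGDH*) to 0.956 (*ASNS*), 0.958 (*CBS*) and 0.971 (*PCK2*). Outside the set, the genes most like its mean were *IL10RB* (r = 0.999), *C19orf12* (0.998), *DOK2* (0.998), *WIPI1* (0.997), *SLC1A4* (0.997), *PTMS* (0.996), *BTG2* (0.996) and *ALDH3B1* (0.995). In H929 they had log2 fold changes of 0.57 (*C19orf12*) to 4.38 (*ALDH3B1*), and *SLC1A4*, a transporter of serine and other neutral amino acids, was at 1.09. In KMS11 they were at 0.15 to 0.98. These libraries share the treatment, so the values describe likeness only.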

How the data were processed

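The authors aligned paired-end reads of ribosome-depleted, stranded total RNA to GRCh38 with STAR 2.5.2b and computed an expected count per GENCODE 26 gene with RSEM 1.3.0. The values deposited by the authors are these expected counts, neither rounded nor scaled, and TPM, which RSEM divides by effective length. For the tests the expected counts were rounded. Genes were matched by Ensembl identifier to GENCODE 44 (57392 of 58219 found), and protein-coding genes passing filterByExpr (minimum count 10, minimum total 15) were kept, leaving 13129 genes. Quasi-likelihood F tests in edgeR 4.0.16 (R 4.3.3) with TMM scaling were fitted to all 8 libraries, from means of the 4 groups, or with line and treatment terms for the lines together. P-values were adjusted over all genes tested by the Benjamini-Hochberg method with a threshold of 0.05, and each SE is the size of the log2 fold change over the root of its F. The code was tested on simulated data.

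The 10 genes and all companion lists were chosen with earlier results of these data known. All 10 genes, partner enzymes in other compartments, up to 4 called genes per companion list with the largest change in H929, KMS11 or the difference, and the 8 genes most correlated with the set's mean were eligible to be named, and 1 of these genes is not reported here. *GART* and *ATIC* were named after their values were seen. Alternatives were DESeq2 1.42.0, library-size or other scaling, filters, all annotated genes, GC and length offsets, a replicate block, limma 3.58.1 on log2(TPM + 1), and leaving out each library. RNA levels at these depths leave *CTH* in KMS11 with the widest counting error.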

Additional observations from a re-analysis of the deposited data

Results flagged for a closer look

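KMS11 and H929 differed in how 5 of the 10 genes changed with fluvastatin, by the edgeR test of the KMS11 response minus the H929 response. The differences, on the log2 scale, were -0.60 for *PSAT1*, -0.76 for *MTHFD2*, -3.19 for *CTH*, -0.51 for *ASNS* and -1.15 for *PCK2*. In each, H929 rose and KMS11 did not pass the test. *CTH*, *PCK2*, *PSAT1* and *ASNS* were also lower in KMS11 ethanol, by 2.80-fold (*ASNS*) to 9.18-fold (*PCK2*), and *MTHFD2* was not called there. Whether the starting level bears on the size of the response was not tested. The groups of 2 libraries were too small for a check of single outlying values.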

How the results depend on the processing

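The counts in H929 (8) and between the lines in ethanol (9) stayed within 1.5 times under each alternative run. For the lines together (4 called), DESeq2 called 7, GC content and length offsets 8, limma on log2(TPM + 1) 1, and an adjusted p under 0.01, the replicate block and a fit with no cell line term 0 each. Leaving out single libraries gave 0 to 7. In KMS11 (0 called), DESeq2 and the fit without a filter called 2, the GC offset with or without length 3, the replicate block 2, and leaving out libraries 0 to 1. For the difference between lines (5 called), all annotated genes gave 3, an adjusted p under 0.01 gave 2, and leaving out libraries 2 to 6. Calls among all genes moved as well. For the lines together 854 of 13129 were called higher, against 1322 (DESeq2), 1265 (GC and length) and 323 (limma). The stricter cut gave 148, the replicate block 143 and no line term 4. In KMS11 339 were higher, against 657 (DESeq2), 895 (no filter), 895 and 896 (GC, without and with length) and 1161 (replicate block). For the difference 1506 were lower, against 1418 (all annotated genes) and 643 (stricter cut). Deviations of same-numbered libraries correlated by 0.575 in H929 and -0.0027 in KMS11. As there were 2 pairs a line and the labels name no shared origin, the numbers were not taken to pair the samples, and the replicate block raised the H929 count to 10. The cause of these changes was not tested. The GC offset moved the share of all calls that were higher from 54.1% to 40.5% in H929, 82.9% to 58.7% in KMS11, 62.3% to 43.3% for the lines together and 50.6% to 64.4% for the difference. On the TPM scale it was 57.0% in KMS11, 29.4% together, 37.2% for the difference and 72.8% (from 49.5%) between the lines in ethanol.

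Signs turned mostly for values near 0. On the TPM scale, *MTHFD2* was at -0.04 in KMS11 and 0.39 between the lines, where the median of all genes was 0.315, and the *BCAT1* difference, -2.57 on counts, was at 0.07. The *SHMT2* difference was 0.00 by library size and 0.01 with all annotated genes, and the *ALDH1L2* difference 0.00 with the GC offset and 0.10 with length added. With the GC offset alone and with length, *MTHFD2L* in H929 was at -0.11 and -0.04, and *CEBPB* in KMS11 at -0.26 and -0.25. Leaving out libraries gave ranges of -0.04 to 0.41 (*PSAT1*, KMS11), -0.06 to 0.17 (*MTHFD2*, KMS11), -0.40 to 0.19 (*PHGDH* difference), -0.25 to 0.19 (*SHMT2* difference) and -0.05 to 0.24 (*MTHFD2L*, H929). With 2 libraries a group and 20 to 38 counts of *CTH* in KMS11, the precision of its response there was limited (SE 0.30).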
